A study of Arabidopsis thaliana with 12 samples.

Results

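The tau and phi classes of glutathione transferases (GSTs) of Arabidopsis thaliana were followed as messenger RNA in seedlings with combined mutations of the PNET2 genes, which encode proteins of the inner nuclear membrane. The members were taken by gene ID: GSTU1 to GSTU28 of the tau class (28 genes) and GSTF2, GSTF3 and GSTF6 to GSTF14 of the phi class (11 genes). All 39 were among the 27436 genes listed, and 38 had enough counts to be tested beside 23330 genes in all. The seedlings were 7 days old and untreated, in the Col-0 ecotype, grown with 1% sucrose on half-strength MS medium, and RNA came from about 50 mg of whole plants. The 4 genotypes were the double mutants pnet2_ac and pnet2_bc, the triple mutant pnet2_abc and the wild type (WT), with 3 libraries each. The labels do not give the mutant alleles, single mutants were not analysed here, and the libraries of a genotype are not said to come from separate plants, so p-values measure the spread between these libraries. In a whole seedling, fewer cells of a type and less RNA per cell cannot be told apart.

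GSTs join the tripeptide glutathione to reactive or foreign compounds, or carry such compounds without changing them, and the conjugates are then moved into the vacuole by ABC transporters. Tau and phi are the large plant classes. Many of their genes lie in tandem arrays and respond to herbicides, pathogens or oxidative stress, while a few members serve in making or moving camalexin, glucosinolates and anthocyanins. TGA transcription factors bind the TGACG half-site of the as-1 element and act with SCL14 in the response to foreign compounds, WRKY factors bind the W-box, and bZIP and bHLH factors bind the G-box.

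The near-identical phi genes come first because reads of one can be assigned to another. The proteins of GSTF6 (AT1G02930) and GSTF7 (AT1G02920), neighbours on chromosome 1, were 93.8% identical, and those of GSTF2 (AT4G02520, chromosome 4) and GSTF3 (AT2G02930, chromosome 2) were 92.5% identical. No other pair within a class reached 90%. The longest run of coding sequence without a mismatch was 116 bases between GSTF6 and GSTF7, and 74 bases between GSTF2 and GSTF3. The first 120 coding bases of the 4 genes (RefSeq, assembly TAIR10.1) read as follows, with capitals at the 21 positions where the 4 are not all alike.
GSTF6: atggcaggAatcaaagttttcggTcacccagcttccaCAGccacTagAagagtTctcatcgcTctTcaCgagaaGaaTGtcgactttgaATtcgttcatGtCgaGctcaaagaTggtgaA
GSTF7: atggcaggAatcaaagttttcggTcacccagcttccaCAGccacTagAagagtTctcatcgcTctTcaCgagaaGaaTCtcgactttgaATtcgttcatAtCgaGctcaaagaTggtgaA
GSTF2: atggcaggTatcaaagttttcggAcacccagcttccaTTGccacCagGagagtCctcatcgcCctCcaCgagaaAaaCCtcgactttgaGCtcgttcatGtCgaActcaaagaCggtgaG
GSTF3: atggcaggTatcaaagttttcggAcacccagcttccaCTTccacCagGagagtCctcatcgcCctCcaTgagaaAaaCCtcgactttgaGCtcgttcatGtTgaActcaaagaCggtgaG
Over this stretch GSTF7 differed from GSTF6 at 2 positions and GSTF3 differed from GSTF2 at 4, so a read that lies between such positions fits both genes of a pair.

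The promoter windows of 3 genes are shown as examples. They are GSTF7 and GSTF10 (AT2G30870), 2 of the 6 phi genes called higher in pnet2_abc, and GSTU9 (AT5G62480), the only member called in a double mutant. Each is the 250 bases before the annotated start in TAIR10.1, 5′ to 3′ on the gene's strand. Capitals mark the as-1 half-site TGACG, the W-box core TTGACC or TTGACT and the G-box CACGTG, searched on both strands. The windows are chr1:659981-660230 (minus strand) for GSTF7, chr2:13141040-13141289 (plus) for GSTF10 and chr5:25089627-25089876 (minus) for GSTU9.
GSTF7: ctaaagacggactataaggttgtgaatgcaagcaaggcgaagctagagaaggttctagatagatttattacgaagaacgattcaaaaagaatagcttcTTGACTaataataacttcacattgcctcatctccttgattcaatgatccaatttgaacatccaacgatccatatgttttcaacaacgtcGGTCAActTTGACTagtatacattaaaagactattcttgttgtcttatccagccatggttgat
GSTF10: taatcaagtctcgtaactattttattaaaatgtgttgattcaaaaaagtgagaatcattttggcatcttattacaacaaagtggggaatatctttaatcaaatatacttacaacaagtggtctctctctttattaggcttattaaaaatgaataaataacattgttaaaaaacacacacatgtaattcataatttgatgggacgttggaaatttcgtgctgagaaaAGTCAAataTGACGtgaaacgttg
GSTU9: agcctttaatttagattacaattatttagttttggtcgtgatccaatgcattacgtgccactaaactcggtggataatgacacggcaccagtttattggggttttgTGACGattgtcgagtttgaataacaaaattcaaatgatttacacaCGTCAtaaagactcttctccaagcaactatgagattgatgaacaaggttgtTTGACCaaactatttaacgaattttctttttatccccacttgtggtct
GSTF7 held 3 W-box cores, GSTF10 held 1 W-box core and 1 half-site, and GSTU9 held 1 W-box core and 2 half-sites. No marked matches overlapped in these windows. GSTF7 held more W-box cores than any other member, so these windows are not typical of the phi genes called higher. The windows of GSTF9 (AT2G30860), the neighbour of GSTF10, and of GSTF2, both also called higher, held none of the 3 motifs.

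Libraries held 65758625 to 115881203 counts, and 3 counts in a library corresponded to 0.0262 to 0.0436 CPM (counts scaled to library size after TMM). Of the 3 genes that the reference annotates with the DUF2215 domain of the PNET2 family, 2 were called lower (AT3G49840 and AT5G67610) and 1 higher (AT1G28760) in pnet2_abc against WT, with log2 fold changes of -2.11, -0.95 and 3.58. Against WT, AT5G67610 was also called lower in pnet2_bc (-0.55, adjusted p = 0.032) and stood at 0.06 in pnet2_ac (adjusted p = 0.863). AT3G49840 and AT1G28760 were called in neither double mutant (-0.49 and 0.43 in pnet2_ac, -0.46 and 0.16 in pnet2_bc). Summed TPM of 7 green-tissue markers was 12849 to 14922 in pnet2_abc against 43034 to 45493 in WT. All 7 were called lower, where 32.0% of all tested genes were. Summed TPM of 7 root markers was 71.4 to 87.7 in pnet2_abc against 104 to 169.6 in WT, with 4 of 7 called lower, while 5 seed markers together stayed under 3.1 TPM in every library. The part of tissue composition in the GST results was not tested. Changes are given after TMM scaling. In pnet2_abc against WT, the log2 fold changes of all tested genes had a median of 0.205 when only library size was used, against 0.0112 with TMM, so ratios of TPM between pnet2_abc and WT run higher than the fold changes given beside them.

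The family as a whole was more abundant in pnet2_abc. The excess lay mainly in the phi genes GSTF6, GSTF7, GSTF9, GSTF10 and GSTF2. Other phi genes, GSTF8 among them, fell, as given below. Levels are given in TPM, a per-length unit that allows genes to be compared. Summed over the 39 genes, TPM averaged 3940 ± 320.3 in pnet2_ac, 3245 ± 419.9 in pnet2_bc, 7982 ± 858 in pnet2_abc and 3177 ± 129.6 in WT (SD, n = 3 each). The 11 phi genes summed to 5492, 6423 and 7100 TPM in pnet2_abc, to 1876, 1762 and 2276 TPM in pnet2_ac, to 1045, 1585 and 1315 TPM in pnet2_bc and to 1256, 1409 and 1274 TPM in WT. All 3 pnet2_abc sums and all 3 pnet2_ac sums lay above the WT range, and the pnet2_bc sums spanned it. The 28 tau genes summed to 1629, 1565 and 1737 TPM in pnet2_abc, below the 1840, 1917 and 1834 TPM of WT. Phi genes thus made up 79.4% of the family's TPM in pnet2_abc, 50.0% in pnet2_ac, 40.5% in pnet2_bc and 41.3% in WT. The whole family held 0.798% of all TPM in pnet2_abc and 0.318% in WT.

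**Figure D1:**
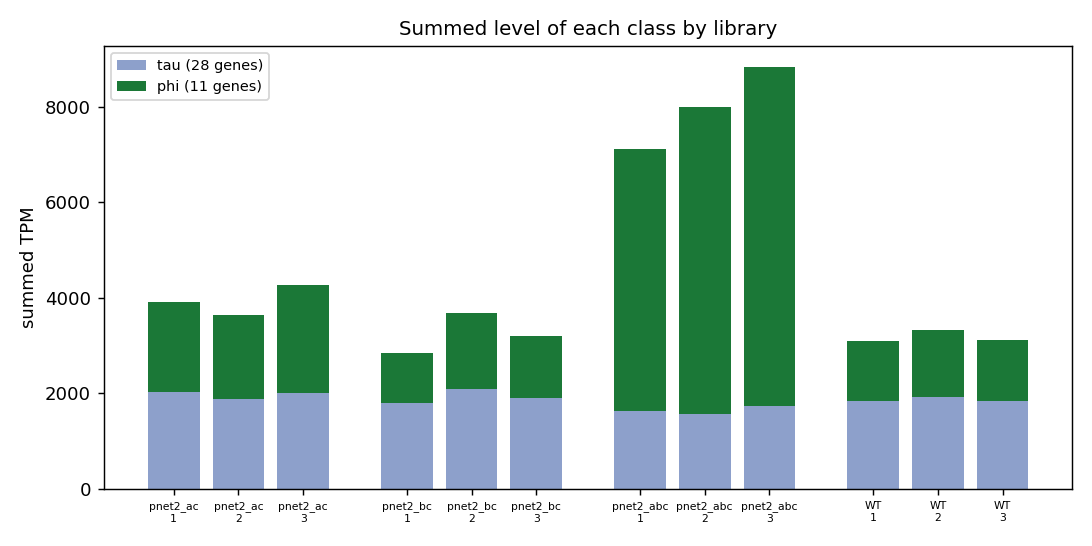
Stacked bars give the summed TPM of the 28 tau and 11 phi genes in each of the 12 libraries, mutants left of WT. The phi part reaches 5492 to 7100 TPM in pnet2_abc and 1256 to 1409 TPM in WT, while the tau part stays between 1565 and 2097 TPM in all 12 libraries.

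In WT, 6 genes held 70.9% of the family's TPM. They were GSTU19 (AT1G78380, a major constitutive tau enzyme) at 647 ± 36.5 TPM, GSTF9 at 460.1 ± 39.96, GSTU20 (AT1G78370, which works in aliphatic glucosinolate synthesis) at 346 ± 19.3, GSTF10 (also known as ERD13, a dehydration-responsive gene) at 300.4 ± 26.98, GSTF8 (AT2G47730, a gene known for induction by salicylic acid and hydrogen peroxide) at 257 ± 24.6 and GSTU5 (AT2G29450, an auxin-inducible tau gene) at 242 ± 9.75 (SD, n = 3). The ranges of GSTF10 and GSTF8 overlapped, as did those of GSTF8 and GSTU5, and the other neighbours in this order did not. The place of GSTF8 depends on the length used. When counts were divided by all annotated exon bases, GSTF8 averaged 192 TPM in WT, below GSTU17 at 203 TPM. GSTU19 was also first in both double mutants, at 708 ± 70.7 TPM in pnet2_ac and 661 ± 68.1 in pnet2_bc. In pnet2_abc it was the sixth, at 630.1 ± 47.6 TPM, behind GSTF6 at 1841 ± 299, GSTF9 at 1468 ± 229.7, GSTF10 at 1227 ± 73.3, GSTF7 at 839.9 ± 121 and GSTF2 at 738 ± 143. GSTF6, the top gene of pnet2_abc, ranked 10 in WT with 63.5 ± 36.5 TPM. At the other end, GSTU15 (AT1G59670) had no count in the 3 WT libraries, and GSTU3, GSTU11, GSTU12, GSTU21, GSTF3 and GSTU2 averaged under 1 TPM there.

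**Figure D2:**
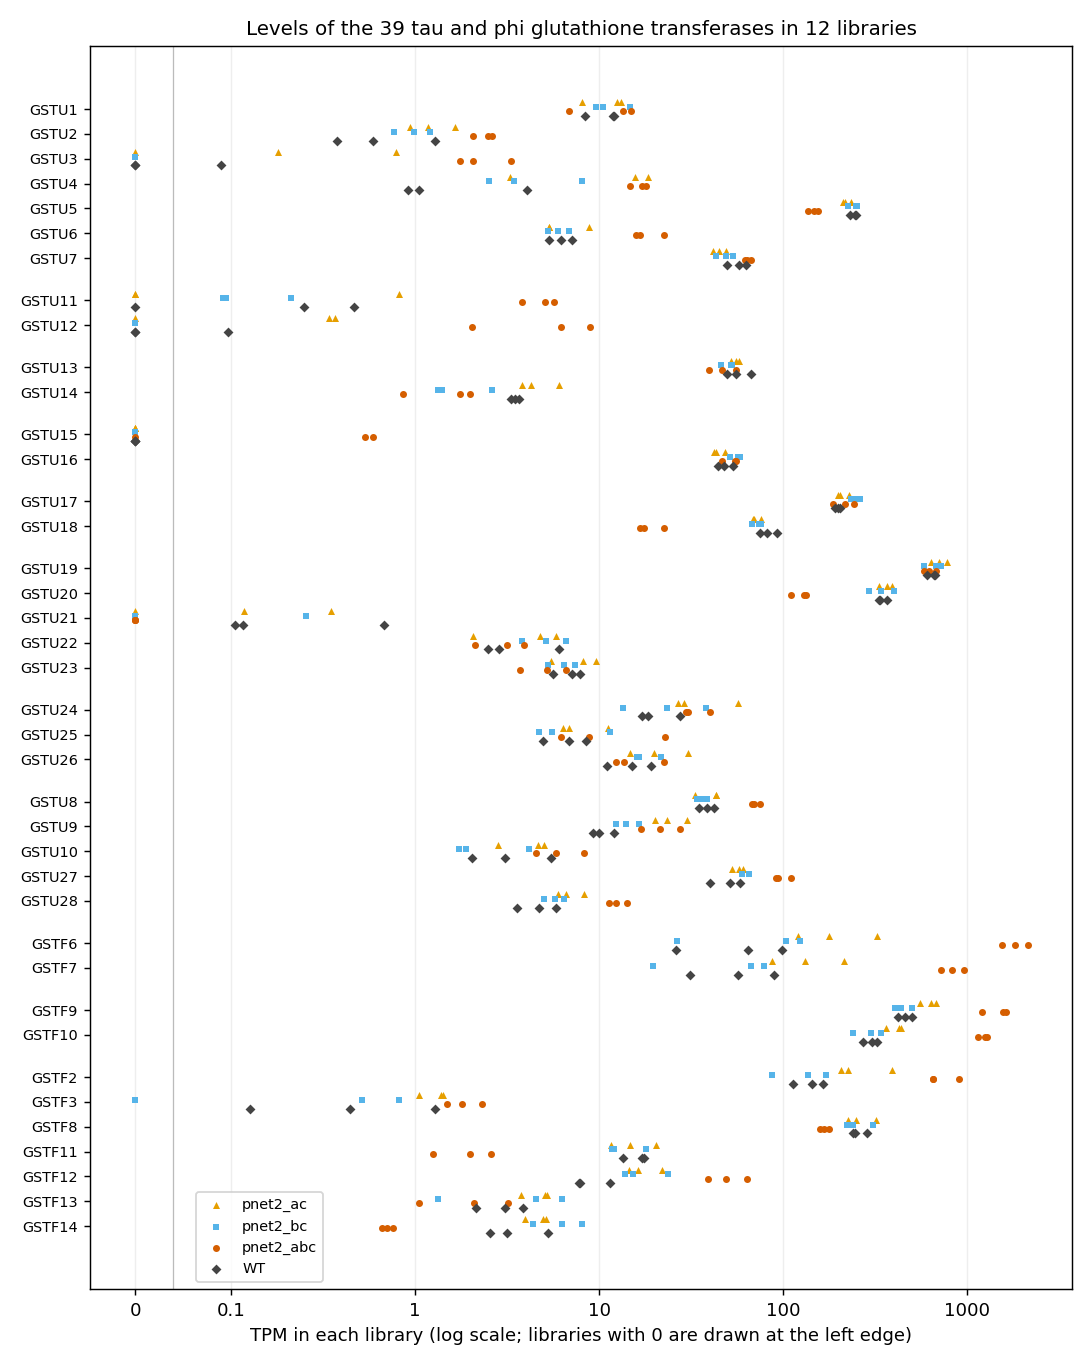
Each row is 1 of the 39 genes, tau above and phi below, with neighbours of a tandem group kept together; each point is the TPM of 1 library on a log scale. Points of pnet2_abc stand right of the other genotypes for GSTF6, GSTF7, GSTF9, GSTF10 and GSTF2, and left of them for GSTU18, GSTU20, GSTF11 and GSTF14.

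In pnet2_abc against WT, 27 of the 38 tested members were called (edgeR quasi-likelihood test, Benjamini-Hochberg adjusted p under 0.05), 16 of them higher and 11 lower. Among the 23330 genes of the fit, 64.5% passed, with 32.5% up and 32.0% down, so the share of members called, 71.1%, lies near the background. The median log2 fold change was 0.53 over the members against 0.0112 over all tested genes. Of 11 phi genes 6 were called higher, 3 lower and 2 not called, with a median of 1.47. Of 27 tested tau genes 10 were called higher, 8 lower and 9 not called, with a median of -0.03. The shares called lower in both classes, and higher in the tau class, lay near those of all genes. The phi genes called higher include both tandem pairs, GSTF6 with GSTF7 and GSTF9 with GSTF10. The difference between the classes was not tested. Among the called members 19 changed at least 2-fold. The share of all tested genes that did so was not counted, so this number is a description.

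**Figure D3:**
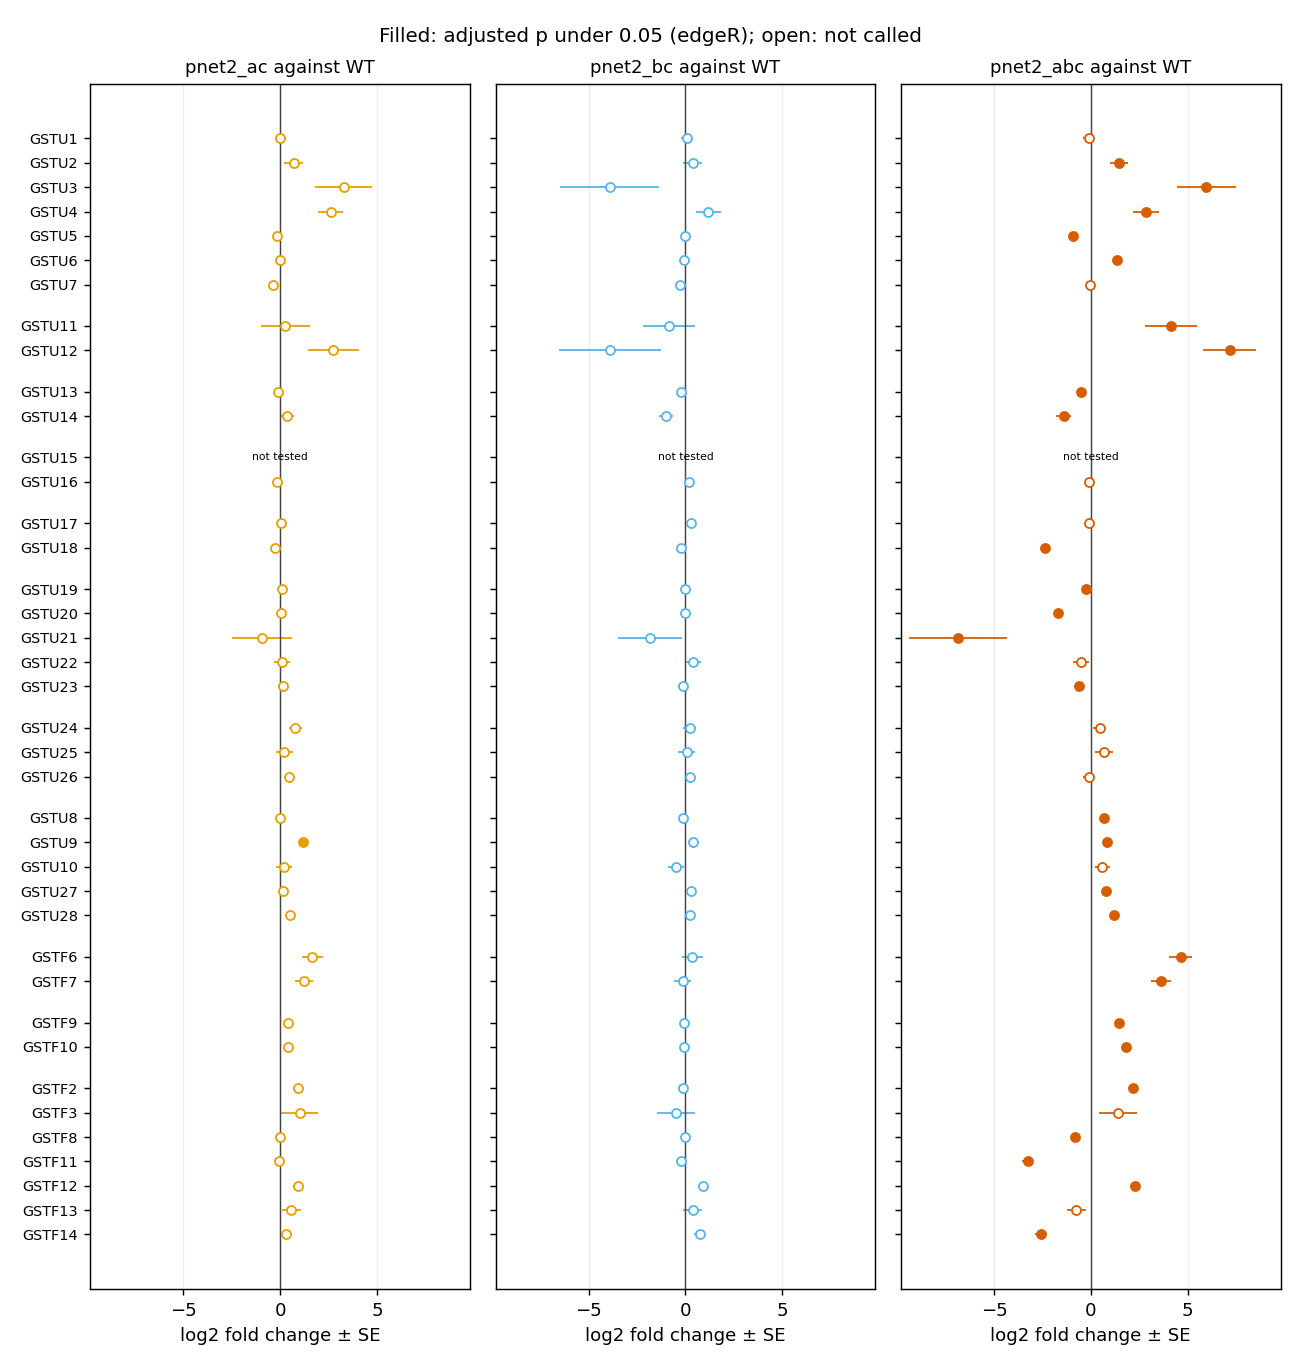
Log2 fold change ± SE of each member against WT in pnet2_ac, pnet2_bc and pnet2_abc, in the row order of the plot of levels; filled points passed an adjusted p of 0.05. In pnet2_abc 27 points are filled, with GSTF6 at 4.64 and GSTF11 at -3.26, and in the double mutants 1 point is filled, GSTU9 in pnet2_ac at 1.18. The 3 panels share the WT libraries, and the point of GSTU21 in pnet2_abc, which had no count there, depends on the fit's prior count.

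Among the phi genes, GSTF6 and its neighbour GSTF7 rose most. GSTF6 acts in the synthesis of camalexin, an antimicrobial indole compound. It stood at 1546, 1833 and 2144 TPM in pnet2_abc, 177, 120.1 and 324 TPM in pnet2_ac, 26.5, 124 and 104 TPM in pnet2_bc and 26.3, 99.3 and 64.8 TPM in WT. Every pnet2_abc library was above all 9 others, and the log2 fold change against WT was 4.64 ± 0.61 (SE), or 24.96-fold, with an adjusted p of 1.74e-05. GSTF7 stood at 726, 827 and 967 TPM in pnet2_abc, 131, 86.9 and 216 TPM in pnet2_ac, 19.6, 78.6 and 66.6 TPM in pnet2_bc and 31.2, 88.8 and 56.96 TPM in WT. It rose by 3.62 ± 0.51 on the log2 scale in pnet2_abc (adjusted p = 3.18e-05), again with no overlap. The ratio of GSTF6 to GSTF7 TPM within a library was 2.13, 2.22 and 2.22 in pnet2_abc, 1.35, 1.38 and 1.5 in pnet2_ac, 1.35, 1.58 and 1.55 in pnet2_bc and 0.843, 1.12 and 1.14 in WT. The pnet2_abc ratios lay above all others. Because the pair shares long identical runs, how the reads were split between the 2 genes is uncertain, and each value may hold reads of the other.

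GSTF2, whose protein binds camalexin and other ligands, had 657, 655 and 903 TPM in pnet2_abc, 226, 208 and 393 TPM in pnet2_ac, 87.2, 171 and 137 TPM in pnet2_bc and 113, 165 and 143 TPM in WT. It rose 4.52-fold in pnet2_abc (log2 fold change 2.18 ± 0.28, adjusted p = 1.24e-05), and its pnet2_abc and WT ranges were far apart. Its near copy GSTF3 was scarce, at 1.49, 1.81 and 2.31 TPM in pnet2_abc, 1.05, 1.41 and 1.39 TPM in pnet2_ac, 0, 0.514 and 0.814 TPM in pnet2_bc and 0.443, 1.28 and 0.126 TPM in WT. With a log2 fold change of 1.40 ± 0.97 and an adjusted p of 0.225 in pnet2_abc, GSTF3 was not called. Of the exon bases of GSTF2, 60.5% also lie, on the opposite strand, in exons of TOC159 (AT4G02510, a chloroplast import receptor). TOC159 averaged 61.6 TPM in pnet2_abc against 106 TPM in WT (log2 fold change -0.999). Since the strand setting of the counting is not given in the sources used here, how reads from the shared bases were counted is not known.

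GSTF9 and GSTF10 are neighbours on chromosome 2 and abundant in every genotype. GSTF9, which takes part in indole glucosinolate synthesis, had 1205, 1629 and 1570.2 TPM in pnet2_abc, 679, 559 and 638 TPM in pnet2_ac, 409, 504 and 437 TPM in pnet2_bc and 501, 458 and 421 TPM in WT. GSTF10 had 1146, 1246 and 1288 TPM in pnet2_abc, 361, 429 and 439 TPM in pnet2_ac, 241, 342 and 299 TPM in pnet2_bc and 304, 325 and 272 TPM in WT. Both rose in pnet2_abc with little spread, by 1.47 ± 0.12 on the log2 scale for GSTF9 (adjusted p = 1.89e-07) and 1.82 ± 0.12 for GSTF10 (adjusted p = 1.46e-08), and neither overlapped WT.

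GSTF12 (AT5G17220, known as TRANSPARENT TESTA 19) carries anthocyanins to the vacuole. Its level was 38.99, 48.7 and 63.9 TPM in pnet2_abc, 21.9, 16.3 and 14.5 TPM in pnet2_ac, 15.3, 23.6 and 13.8 TPM in pnet2_bc and 7.82, 7.85 and 11.4 TPM in WT. All 9 mutant libraries were above the highest WT library. The rise passed the test in pnet2_abc (4.82-fold, log2 fold change 2.27 ± 0.25, adjusted p = 3.34e-06) and missed it in pnet2_ac (0.90 ± 0.24, adjusted p = 0.102) and pnet2_bc (0.91 ± 0.25, adjusted p = 0.132). Of its exon bases 9.85% are shared with the opposite-strand gene PSY.

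The phi genes that fell were GSTF11, GSTF14 and GSTF8. GSTF11 (AT3G03190, chromosome 3), which serves in aliphatic glucosinolate synthesis, had 2.59, 1.98 and 1.25 TPM in pnet2_abc, 20.5, 11.6 and 14.8 TPM in pnet2_ac, 12.03, 18.01 and 11.7 TPM in pnet2_bc and 17.4, 17.2 and 13.5 TPM in WT. The pnet2_abc values lay far below all others, a log2 fold change of -3.26 ± 0.29 (9.61-fold lower, adjusted p = 3.53e-07). All of its exon bases also lie in exons of NAC045 (AT3G03200) on the opposite strand, a gene that rose to 1.53 TPM in pnet2_abc, against 0.339 TPM in WT (log2 fold change 1.96, adjusted p = 0.00146). GSTF14 (AT1G49860) had 0.706, 0.660 and 0.761 TPM in pnet2_abc, 4.98, 5.16 and 3.95 TPM in pnet2_ac, 6.29, 8.10 and 4.35 TPM in pnet2_bc and 5.28, 3.14 and 2.54 TPM in WT, and it was 5.93-fold lower in pnet2_abc (log2 fold change -2.57 ± 0.31, adjusted p = 8.05e-06). Its 3 pnet2_abc libraries were alike and below every other library. GSTF8 had 166, 177 and 158 TPM in pnet2_abc, 249, 319.7 and 226 TPM in pnet2_ac, 224, 309 and 240.3 TPM in pnet2_bc and 245, 241 and 285 TPM in WT, a smaller fall of 1.78-fold (log2 fold change -0.83 ± 0.13, adjusted p = 0.000105) with no overlap. GSTF13 (AT3G62760) ranged from 1.05 to 3.196 TPM in pnet2_abc and from 2.15 to 3.87 TPM in WT and was not called (log2 fold change -0.74 ± 0.50, adjusted p = 0.214).

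Among the tau genes, the array GSTU1 to GSTU7 on chromosome 2 held members that moved in opposite directions. The 7 genes lie within 12617936 to 12632538 on the minus strand in TAIR10.1, and their proteins share 50.2% to 81.7% of residues. In pnet2_abc 4 were called higher (GSTU2, GSTU3, GSTU4 and GSTU6), 1 was called lower (GSTU5) and 2 were not called. The array's share of calls, 71.4%, lay near the 64.5% found over the whole fit (32.5% up, 32.0% down). GSTU5 had 147, 137 and 154 TPM in pnet2_abc, 233, 211 and 218 TPM in pnet2_ac, 248, 252 and 227 TPM in pnet2_bc and 231, 249 and 246 TPM in WT, and it fell by 0.94 ± 0.07 on the log2 scale in pnet2_abc (1.92-fold lower, adjusted p = 5.78e-08). Next to it, GSTU6 (AT2G29440) had 16.6, 22.6 and 15.9 TPM in pnet2_abc, 5.32, 8.84 and 5.36 TPM in pnet2_ac, 5.96, 6.90 and 5.31 TPM in pnet2_bc and 6.18, 7.09 and 5.33 TPM in WT, and it rose by 1.36 ± 0.22 (adjusted p = 9.94e-05). Within a library GSTU5 exceeded GSTU6 by 8.82, 6.07 and 9.66 times in pnet2_abc, against 37.3, 35.1 and 46.1 times in WT. That ratio needs no scaling between libraries, and the pnet2_abc values lay apart from those of the other 9 libraries, which ran from 23.9 to 46.1.

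GSTU4 (AT2G29460) had 18.1, 14.7 and 17.03 TPM in pnet2_abc, 15.7, 3.29 and 18.5 TPM in pnet2_ac, 2.51, 8.03 and 3.43 TPM in pnet2_bc and 1.05, 4.07 and 0.915 TPM in WT. Its spread within genotypes was the widest of the 32 members with a mean of at least 1 CPM: pnet2_ac replicate 2 stood with the WT libraries and the other 2 pnet2_ac libraries stood with pnet2_abc. It was 7.16-fold higher in pnet2_abc (log2 fold change 2.84 ± 0.67, adjusted p = 0.00227) and was not called in pnet2_ac (2.60 ± 0.67, adjusted p = 0.0856). GSTU3 (AT2G29470) was counted 95, 81 and 177 times in pnet2_abc, 64, 0 and 9 times in pnet2_ac, never in pnet2_bc, and 0, 0 and 5 times in WT. Its rise was called (log2 fold change 5.97 ± 1.54, adjusted p = 0.00543), but the size rests on 5 WT counts. GSTU2 (AT2G29480) had 2.50, 2.06 and 2.60 TPM in pnet2_abc, 1.64, 1.18 and 0.942 TPM in pnet2_ac, 1.20, 0.989 and 0.767 TPM in pnet2_bc and 0.589, 1.28 and 0.377 TPM in WT (pnet2_abc log2 fold change 1.46 ± 0.49, adjusted p = 0.0177). Without WT replicate 1 or WT replicate 3 the change of GSTU2 was 1.31 or 1.15 and no longer called. Opposite-strand exons cover 70.3% of the exon bases of GSTU2 (AT2G29485, at most 0.2 TPM on average in any genotype) and 29.9% of those of GSTU6 (AT2G29430, 0.991 TPM in pnet2_abc).

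The remaining neighbours GSTU1 (AT2G29490) and GSTU7 (AT2G29420) were not called, with log2 fold changes of -0.10 ± 0.28 and -0.03 ± 0.10 in pnet2_abc whose sign turned when libraries were scaled by size alone. GSTU1 ranged from 6.83 to 14.9 TPM in pnet2_abc and from 8.38 to 12.02 TPM in WT. GSTU7 ranged from 62.2 to 66.8 TPM in pnet2_abc and from 49.3 to 62.8 TPM in WT.

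In the array GSTU19 to GSTU23 on chromosome 1, 4 of 5 genes were called lower in pnet2_abc, where 32.0% of all tested genes were. GSTU22 was not called. Of the 4 calls, only that of GSTU20 held in every other setting. GSTU20 had 131, 110.4 and 133 TPM in pnet2_abc, 393, 368 and 331 TPM in pnet2_ac, 295, 399 and 342 TPM in pnet2_bc and 368, 339 and 331 TPM in WT. It was 3.22-fold lower in pnet2_abc (log2 fold change -1.68 ± 0.10, adjusted p = 6.39e-09), far outside the spread of any genotype. Its neighbour GSTU19, the gene next upstream, had 624, 586 and 681 TPM in pnet2_abc, 701, 641 and 782 TPM in pnet2_ac, 586, 720.03 and 677 TPM in pnet2_bc and 606, 672 and 665 TPM in WT. The pnet2_abc and WT ranges overlapped in TPM, though not in CPM after TMM. The log2 fold change was -0.25 ± 0.09 (adjusted p = 0.0284), and with library size alone it was -0.06 and not called. Leaving out pnet2_abc replicate 1 or 2, or WT replicate 2 or 3, also ended the call of GSTU19, at -0.23, -0.22, -0.23 and -0.22. The ratio of GSTU20 to GSTU19 within a library was 0.209, 0.188 and 0.196 in pnet2_abc, against 0.608, 0.504 and 0.499 in WT and 0.423 to 0.574 in the double mutants.

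GSTU21 (AT1G78360) had no count in pnet2_abc and 32, 5 and 5 counts in WT, at least 14.5-fold lower when 3 counts are allowed over the pnet2_abc group. That bound covers counting error only. It leaves out the spread between the WT libraries and the excess of multiples of 4 among low counts, given below. Without WT replicate 1, an alternative chosen after seeing the data, WT held 10 counts and the bound was 5.29-fold. Its call (adjusted p = 0.0329) was lost without WT replicate 1 and without any single pnet2_abc library. GSTU23 (AT1G78320) had 6.57, 3.72 and 5.23 TPM in pnet2_abc, 8.22, 9.62 and 5.45 TPM in pnet2_ac, 6.47, 7.39 and 5.30 TPM in pnet2_bc and 7.87, 7.11 and 5.61 TPM in WT. Its pnet2_abc and WT ranges overlapped in TPM, though not in CPM after TMM. Its call at -0.62 ± 0.25 (adjusted p = 0.0467) was lost in 12 of 20 other settings. Among them were leaving out pnet2_ac replicate 1, pnet2_bc replicate 1 or 2, pnet2_abc replicate 2 or 3, or WT replicate 1 or 2 (-0.45 to -0.63). GSTU22 (AT1G78340) ranged from 2.12 to 3.90 TPM in pnet2_abc and from 2.503 to 6.02 TPM in WT (adjusted p = 0.298).

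GSTU17 and GSTU18 lie side by side on the minus strand of chromosome 1 and their annotated ends overlap by 71 bases. GSTU17 (AT1G10370, also ERD9, known for roles in light signalling and drought) had 187, 243 and 218 TPM in pnet2_abc, 229, 199 and 204 TPM in pnet2_ac, 261, 244 and 233 TPM in pnet2_bc and 203, 199 and 192 TPM in WT. The pnet2_abc range enclosed the WT range, the log2 fold change was -0.09 ± 0.10 (adjusted p = 0.454) and its sign turned with library size alone. GSTU18 (AT1G10360) had 22.6, 16.8 and 17.7 TPM in pnet2_abc, 76.2, 68.7 and 69.8 TPM in pnet2_ac, 74.02, 76.1 and 67.99 TPM in pnet2_bc and 75.2, 82.3 and 92.8 TPM in WT. It was 5.12-fold lower in pnet2_abc (log2 fold change -2.36 ± 0.12, adjusted p = 1.23e-09). GSTU18 stood at 0.121, 0.069 and 0.0811 of GSTU17 in pnet2_abc, at 0.333, 0.346 and 0.342 in pnet2_ac, at 0.284, 0.312 and 0.292 in pnet2_bc and at 0.37, 0.413 and 0.483 in WT. The pnet2_abc ratios were the lowest, and the ratios of both double mutants also lay below those of WT, although GSTU18 itself was not called there (adjusted p = 0.248 in pnet2_ac and 0.437 in pnet2_bc).

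**Figure D4:**
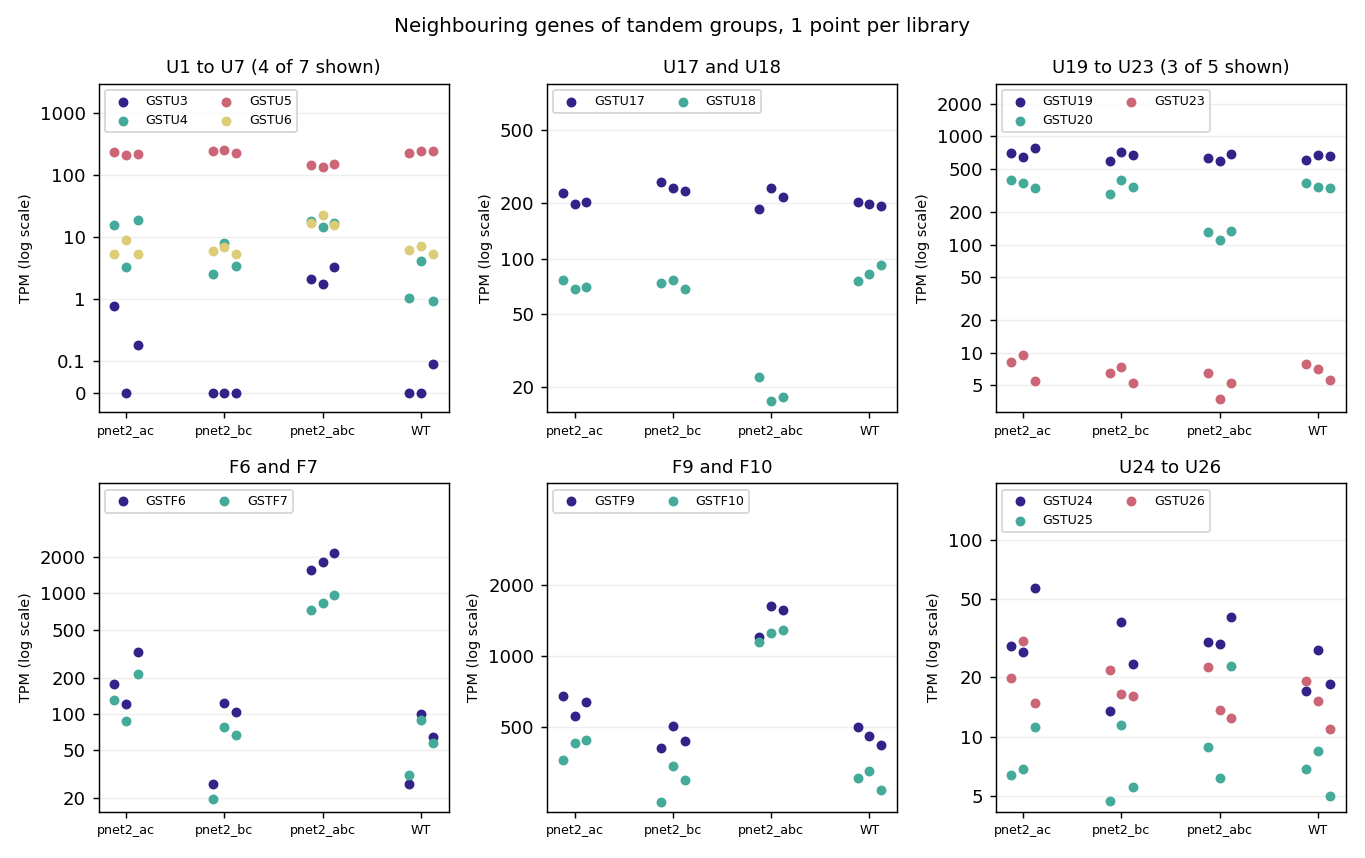
TPM of neighbouring genes on log scales, 1 point per library, mutants left of WT; libraries with 0 TPM are drawn at the tick marked 0. GSTU18 falls to 16.8 to 22.6 TPM in pnet2_abc beside GSTU17 at 187 to 243 TPM, GSTU5 and GSTU6 draw closer together, and the genes of the F6 and F9 pairs rise together.

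The other tandem groups were smaller. GSTU11 (AT1G69930) and GSTU12 (AT1G69920) on chromosome 1 both rose, but both were scarce outside pnet2_abc. GSTU12 was counted 88, 388 and 311 times in pnet2_abc, 28, 0 and 16 times in pnet2_ac, never in pnet2_bc and 5, 0 and 0 times in WT (log2 fold change 7.17 ± 1.35, adjusted p = 0.000677, a size that rests on 5 WT counts). GSTU11 was counted 178, 238 and 307 times in pnet2_abc, 68, 0 and 0 in pnet2_ac, 5, 12 and 5 in pnet2_bc and 14, 24 and 0 in WT (log2 fold change 4.15 ± 1.34, adjusted p = 0.0152). Every pnet2_abc library was above every other library for both. Low counts may be less exact than their number implies in these files. Of the values from 1 to 40 in a library, 32.3% to 41.0% were multiples of 4, where an even spread gives 25%. The reason for this excess was not tested.

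GSTU13 (AT1G27130), which acts in pathogen-triggered indole glucosinolate metabolism, and GSTU14 (AT1G27140) were both called lower in pnet2_abc. GSTU14 had 1.75, 1.99 and 0.858 TPM in pnet2_abc, 4.25, 6.05 and 3.81 TPM in pnet2_ac, 2.60, 1.33 and 1.40 TPM in pnet2_bc and 3.31, 3.69 and 3.49 TPM in WT (log2 fold change -1.40 ± 0.38, adjusted p = 0.00512). The pnet2_bc libraries of GSTU14 were also all below WT, without a call (adjusted p = 0.304), and the pnet2_ac libraries were all above it. GSTU13 ranged from 39.5 to 55.2 TPM in pnet2_abc and from 49.9 to 66.8 TPM in WT (log2 fold change -0.50 ± 0.11, adjusted p = 0.00181). Its ranges overlapped in TPM, though not in CPM after TMM. On the TPM scale with limma its change was -0.29 and not called. GSTU15 was counted 22, 20 and 0 times in pnet2_abc and never in the other 9 libraries, too rarely to be tested. Its neighbour GSTU16 (AT1G59700), at 46.8 to 55.6 TPM in pnet2_abc and 44.5 to 53.3 TPM in WT, was not called, and its sign turned with library size alone.

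None of GSTU24 (AT1G17170), GSTU25 (AT1G17180) and GSTU26 (AT1G17190), a group on chromosome 1 whose first 2 genes are known for strong induction by foreign compounds such as TNT, was called in any of the 6 comparisons. GSTU24 ranged from 29.5 to 40.3 TPM in pnet2_abc and from 17.03 to 27.4 TPM in WT (adjusted p = 0.267). GSTU25 ranged from 6.17 to 22.9 TPM in pnet2_abc and from 4.98 to 8.47 TPM in WT (adjusted p = 0.2), and without pnet2_abc replicate 3, its highest library, the log2 fold change turned from positive to -0.06. GSTU26 ranged from 12.4 to 22.6 TPM in pnet2_abc and from 10.996 to 19.1 TPM in WT (adjusted p = 0.746), with a sign that turned with library size alone.

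Of the 5 tau genes outside tandem groups, 4 were called higher in pnet2_abc, where 32.5% of all tested genes were. GSTU10 (AT1G74590) was not called (log2 fold change 0.61 ± 0.41, adjusted p = 0.214), although without WT replicate 2 it was called at 1.07. GSTU28 (AT1G53680) ranged from 11.3 to 14.2 TPM in pnet2_abc and from 3.58 to 5.83 TPM in WT, a log2 fold change of 1.21 ± 0.22. GSTU27 (AT3G43800) ranged from 92.1 to 109.97 TPM in pnet2_abc and from 39.9 to 58.01 TPM in WT (0.78 ± 0.11), and GSTU8 (AT3G09270) from 67.9 to 74.8 TPM in pnet2_abc and from 35.1 to 42.1 TPM in WT (0.66 ± 0.10). No range of these 3 overlapped WT.

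GSTU9 was the 1 member called in a double mutant. It had 23.3, 20.2 and 29.9 TPM in pnet2_ac, 12.3, 16.5 and 14.1 TPM in pnet2_bc, 21.5, 16.98 and 27.5 TPM in pnet2_abc and 10.03, 12.1 and 9.25 TPM in WT. All 9 mutant libraries were above the highest WT library, and pnet2_ac was the highest genotype on average. The log2 fold change against WT was 1.18 ± 0.19 in pnet2_ac (2.26-fold, adjusted p = 0.0165), 0.41 ± 0.19 in pnet2_bc (adjusted p = 0.457) and 0.86 ± 0.19 in pnet2_abc (adjusted p = 0.00148), 3 values that share the WT libraries. The call in pnet2_ac was lost without pnet2_ac replicate 3, WT replicate 1 or WT replicate 3, where the changes were 0.995, 1.13 and 1.11. It had the only call among 38 tested members in pnet2_ac, or 2.63%, where 1.14% of all tested genes were called.

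In pnet2_ac 14 of 38 members had an unadjusted p under 0.05, where 14.6% of all tested genes did, and 8 had CPM ranges above WT and 3 below it. Over all tested genes 9.73% lay above and 9.91% below. Those above were GSTU9, GSTU14 and GSTU28 of the tau class and GSTF2, GSTF6, GSTF9, GSTF10 and GSTF12 of the phi class. The phi changes that came nearest to the threshold were those of GSTF12, given above, GSTF10 (0.39 ± 0.11, adjusted p = 0.117), GSTF2 (0.92 ± 0.27, adjusted p = 0.124) and GSTF9 (0.39 ± 0.12, adjusted p = 0.141). GSTF6 changed by more but varied more (1.65 ± 0.54, adjusted p = 0.171). Those below were GSTU5, GSTU7 and GSTU18. The DESeq2 Wald test called 6 members in pnet2_ac, GSTU4 and GSTF12 among them, where it called 4.57% of the genes it gave an adjusted p.

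In pnet2_bc no member was called by edgeR, where 0.643% of all tested genes were. Unadjusted p was under 0.05 for 7 members, against 11.1% of all tested genes, and DESeq2 called 1 member, GSTF12, against 2.88% of genes. CPM ranges lay above WT for GSTU9, GSTU17, GSTU27 and GSTF12 and below it for 2 members, where 8.68% of all tested genes lay above and 8.35% below. The median log2 fold change of the members was -0.04 in pnet2_bc and 0.23 in pnet2_ac. A p above the threshold does not show that a level was the same.

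Set against the double mutants in place of WT, pnet2_abc showed 24 called members against pnet2_ac (13 higher, 11 lower, where 62.9% of all tested genes were called) and 25 against pnet2_bc (16 higher, 9 lower, where 64.1% were). These comparisons share the pnet2_abc libraries. Against pnet2_ac, GSTF6 was 2.99 ± 0.57 higher on the log2 scale, GSTF7 2.38 ± 0.48, GSTF2 1.26 ± 0.27, GSTF12 1.37 ± 0.24 and GSTF10 1.43 ± 0.11. Against pnet2_bc the same genes were 4.28 ± 0.60, 3.77 ± 0.51, 2.32 ± 0.28, 1.36 ± 0.24 and 1.89 ± 0.12 higher. GSTF11 was lower, with a log2 fold change of -3.18 ± 0.29 against pnet2_ac and -3.02 ± 0.29 against pnet2_bc. GSTU4 and GSTU9 were not called against pnet2_ac (adjusted p = 0.756 and 0.162), so for these genes pnet2_abc and pnet2_ac were not told apart.

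Between pnet2_ac and pnet2_bc no member was called by edgeR, where 0.257% of all tested genes were. Unadjusted p was under 0.05 for 13 members, against 10.9% of all tested genes, and DESeq2 called 5, against 2.84% of genes. The smallest adjusted p were those of GSTF10 (log2 fold change 0.47 ± 0.11, adjusted p = 0.124), GSTU9 (0.76 ± 0.19, adjusted p = 0.134) and GSTF2 (1.06 ± 0.27, adjusted p = 0.143), each with all pnet2_ac libraries above all pnet2_bc libraries.

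The promoter windows were counted for all 39 members. The as-1 half-site was found in 14 of 39 (35.9%), where 18.6% of the 27437 promoter windows of the genome held it, and the W-box core in 21 of 39 (53.8%), where 28.4% did. The G-box was found in 3 of 39 (7.69%, against 6.49%), GSTU17 and GSTU18 among them. The window of GSTU18 overlaps an exon of GSTU17. The core of the mitochondrial dysfunction motif was found in 7 (17.9%, against 7.97%). By call in pnet2_abc, the half-site was present in 6 of 16 members called higher, 2 of 11 called lower and 6 of 11 not called. The W-box core was present in 10 of 16 higher, 4 of 11 lower and 7 of 11 not called. A match describes the letters of the window and is not evidence of binding.

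Genes that work beside named GSTs changed in pnet2_abc in the following way, from 57 companion genes of which 45 were called, where 64.5% of all tested genes were, 32.5% higher and 32.0% lower. The lists here and in the next paragraphs were chosen with earlier results of these data known. Their counts are descriptions and do not test enrichment. In the anthocyanin list, beside GSTF12, 5 of 7 tested genes were called higher and 1 lower. DFR, a late enzyme of the pathway, had 55.4, 59.8 and 93.5 TPM in pnet2_abc and 9.90, 10.1 and 13.4 TPM in WT (log2 fold change 2.43 ± 0.30, adjusted p = 8.11e-06). UF3GT, which adds a sugar to anthocyanins, had 14.8, 14.3 and 26.2 TPM in pnet2_abc and 1.36, 0.992 and 2.20 TPM in WT (3.38 ± 0.46). MYBL2, a repressor of the pathway, had 5.12, 3.82 and 6.41 TPM in pnet2_abc, 14.7, 14.1 and 20.1 TPM in pnet2_ac, 34.99, 33.5 and 40.6 TPM in pnet2_bc and 38.99, 39.99 and 34.4 TPM in WT. It was called lower in pnet2_abc (-3.10 ± 0.19, adjusted p = 8.07e-09) and in pnet2_ac (-1.27 ± 0.17, adjusted p = 0.0079), and in pnet2_bc it overlapped WT.

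In the camalexin list, beside GSTF6, 2 of 3 genes were called higher, where 32.5% of all tested genes were. PAD3, the last enzyme of camalexin synthesis, had 30.4, 21.6 and 35.2 TPM in pnet2_abc, 8.31, 2.88 and 13.5 TPM in pnet2_ac, 0.976, 5.94 and 2.90 TPM in pnet2_bc and 2.74, 3.80 and 1.59 TPM in WT (pnet2_abc log2 fold change 3.21 ± 0.61, adjusted p = 0.000404). CYP71A13, the enzyme that makes its precursor, rose by 2.04 ± 0.82 with an adjusted p of 0.0428 and wide spread, and CYP71A12 was not called.

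All 6 genes of the glucosinolate list were called, 2 higher and 4 lower (32.5% and 32.0% of all tested genes). In the aliphatic branch, where GSTF11 and GSTU20 fell, CYP79F1 had 3.96, 2.26 and 3.62 TPM in pnet2_abc and 52.3, 42.1 and 38.8 TPM in WT (log2 fold change -3.97 ± 0.20, adjusted p = 1.81e-09), and CYP83A1 had 31.3, 22.4 and 25.9 TPM in pnet2_abc and 146, 129 and 129 TPM in WT (-2.56 ± 0.12, adjusted p = 9.64e-10). In the indole branch, where GSTF9 and GSTF10 rose and GSTU13 fell, CYP83B1 rose by 1.38 ± 0.16 (adjusted p = 3.95e-06) and CYP79B2 by 1.23 ± 0.13, while CYP79B3 fell (-1.33 ± 0.21). SUR1, which serves both branches, was -0.32 ± 0.09. With 6 genes in the list, the difference between the branches is a description and was not tested.

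**Figure D5:**
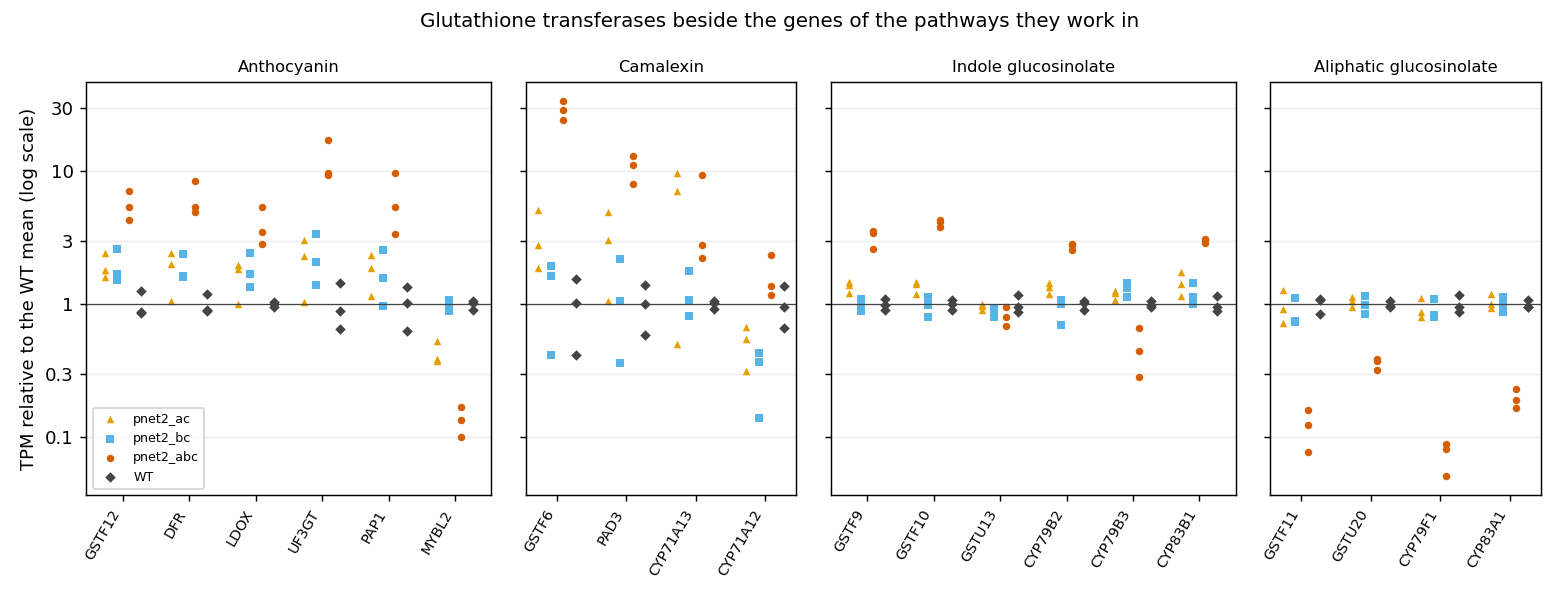
TPM of each gene relative to its WT mean on a log scale, 1 point per library, grouped by pathway, mutants left of WT. In pnet2_abc GSTF12, DFR and UF3GT stand above 1 and MYBL2 below it, GSTF6 and PAD3 stand above 1, and GSTF11, GSTU20, CYP79F1 and CYP83A1 all stand below it.

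Of the genes that supply glutathione or handle its conjugates, 7 of 11 were called higher and 3 lower in pnet2_abc (32.5% and 32.0% of all tested genes), with a median log2 fold change of 0.68. ABCC3, a vacuolar transporter of glutathione conjugates, had 130.5, 138 and 149 TPM in pnet2_abc and 17.8, 21.2 and 14.98 TPM in WT (log2 fold change 2.74 ± 0.12, adjusted p = 4.48e-10). GGT1, a gamma-glutamyl transferase that degrades glutathione outside the cell, had 55.97, 58.9 and 60.1 TPM in pnet2_abc and 10.9, 10.9 and 10.1 TPM in WT (2.24 ± 0.12). PCS1, phytochelatin synthase, rose by 1.65 ± 0.08, and GSH1, the first enzyme of glutathione synthesis, rose by 1.096 ± 0.06. The transporters ABCC1 (-0.17 ± 0.05) and ABCC2 (-0.43 ± 0.07) and the plastid glutathione reductase GR2 (-0.62 ± 0.06) were called lower. The change of ABCC1 is smaller than the shift between scalings given above.

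In the list of genes known to respond to foreign compounds, 8 of 11 were called higher and 1 lower in pnet2_abc (32.5% and 32.0% of all tested genes). CYP81D8, a cytochrome P450, had 52.6, 44.04 and 49.7 TPM in pnet2_abc and 2.102, 1.54 and 1.41 TPM in WT (log2 fold change 4.64 ± 0.26, adjusted p = 5.07e-09). DTX3, of the MATE transporter family, had 26.98, 25.2 and 42.6 TPM in pnet2_abc, 2.60, 1.30 and 4.93 TPM in pnet2_ac, 0.408, 2.42 and 1.17 TPM in pnet2_bc and 0.379, 1.17 and 0.432 TPM in WT (5.38 ± 0.67, adjusted p = 9.47e-06). CYP81D11 went the other way, with 3.09, 2.09 and 1.93 TPM in pnet2_abc, 12.5, 10.8 and 9.86 TPM in pnet2_ac, 19.5, 25.8 and 20.3 TPM in pnet2_bc and 23.5, 20.7 and 19.96 TPM in WT. It was called lower in pnet2_abc (-3.39 ± 0.17) and in pnet2_ac (-1.01 ± 0.15, adjusted p = 0.0121). Of the regulators, TGA5 (0.54 ± 0.10) and TGA6 (0.42 ± 0.14) were called higher and TGA2 and SCL14 were not called.

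Among 14 GSTs outside the 39 members, 6 were called higher and 4 lower in pnet2_abc (32.5% and 32.0% of all tested genes), with a median log2 fold change of 0.42. GSTF5, a phi gene outside the member list that is named here after its values were seen, rose by 4.73 ± 0.88 to 10.9, 4.73 and 5.79 TPM in pnet2_abc, against 0, 0.517 and 0.174 TPM in WT (log2 fold change, adjusted p = 0.000366). The dehydroascorbate reductases, which return vitamin C to its reduced form, moved in both directions: DHAR1 rose by 0.95 ± 0.07 and DHAR3, the plastid form, fell (-1.35 ± 0.07). The lambda-class gene GSTL2 also fell (-0.89 ± 0.08).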

How the data were processed

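Messenger RNA of whole seedlings was sequenced in 12 libraries of 4 genotypes. The deposited tables hold raw read counts per gene and TPM values from the authors. The submitters' processing notes name HISAT2 2.0.4, HTSeq 0.6.1p1 and the build TAIR10, and the strand setting of counting is not given in the sources used here. The deposited TPM equalled the deposited counts divided by isoform length and rescaled, within 0.1%, for every gene with counts, so both tables are 1 measurement.

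Counts were filtered with filterByExpr, scaled by TMM and tested with edgeR 4.0.16 (quasi-likelihood test, R 4.3.3) in 1 fit over all 12 libraries, with Benjamini-Hochberg adjustment over 23330 genes and a threshold of 0.05. The test was tried on simulated data with few changed genes and the same spread for every gene. Those settings differ from pnet2_abc, so the trial checks the code only. DESeq2 1.42.0, limma 3.58.1 on log2 TPM, other scalings and filters, a replicate block and leaving out each library were alternatives. Floors of 3 counts cover counting error only.

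Members and gene lists were chosen with earlier results of these data known. Values in every library are given for the 6 members highest in WT, the 8 largest called rises and falls in pnet2_abc with a mean of at least 1 CPM, members called in a double mutant, arrays with calls in both directions, and pairs at least 90% identical. From each companion list come the members called in a double mutant, the 3 largest called changes with a mean of at least 5 CPM, and partners of named GSTs. Some further members have values in every library outside this rule. Gene positions, proteins and promoter windows come from RefSeq (TAIR10.1), joined by gene ID only. One promoter window is not reported here.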

Additional observations from a re-analysis of the deposited data

How the results depend on the processing

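In pnet2_abc, member counts stayed within 1.5 times under every alternative, with 24 to 28 called against WT, 23 to 26 against pnet2_ac and 22 to 28 against pnet2_bc when 1 library was left out, and 41 to 45 companion genes against WT. In pnet2_ac against WT, DESeq2 called 6 members and 9 companion genes in place of 1 and 2, and leaving out 1 library gave 0 to 2 members and 1 to 3 companion genes. In pnet2_bc against WT, DESeq2 called 1 member and 2 companion genes in place of 0, and a fit of only the 2 genotypes called 2 companion genes. Between pnet2_ac and pnet2_bc, DESeq2 called 5 members in place of 0.

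The replicate numbers did not pair the libraries (correlations of deviations -0.0138 to 0.168). With the replicate block 1 member was called between pnet2_ac and pnet2_bc, in place of 0, and GSTU21 lost its call in pnet2_abc (adjusted p = 0.0617).

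Counts over all genes moved more. In pnet2_ac against WT they were 266, with 1064 by DESeq2 and 59 to 129 in the leave-one-out fits that moved it most. In pnet2_bc against WT they were 150, with 672 by DESeq2, 249 from only the 2 genotypes and 29 to 60 likewise. Between pnet2_ac and pnet2_bc they were 60, with 508 by DESeq2, 36 and 38 on log2 TPM with pseudocounts of 0.1 and 1, and 8 to 132 likewise. With library size alone the share of calls that were higher was 67.6% in pnet2_ac (39.5% with TMM), 61% in pnet2_bc (46.7%) and 60.2% in pnet2_abc (50.4%), each against WT, and 61.8% between pnet2_ac and pnet2_bc (50%).

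Of members not called in pnet2_abc against WT, some changed sign. With library size alone, and on log2 TPM with pseudocounts of 0.1 and 1, the log2 fold changes were 0.0978, 0.06345 and 0.06343 for GSTU1, 0.162, 0.188 and 0.185 for GSTU7, 0.0864, 0.108 and 0.106 for GSTU16, 0.101, 0.113 and 0.1126 for GSTU17, and 0.0834, 0.0853 and 0.0810 for GSTU26. When each library was left out in turn, GSTU1 ran from -0.286 to 0.162, GSTU7 from -0.104 to 0.0470, GSTU17 from -0.202 to 0.0202, GSTU25 from -0.0642 to 1.01 and GSTU26 from -0.407 to 0.0762. GSTF3 was called on log2 TPM with a pseudocount of 1 (0.88). The cause of these shifts was not tested. Low counts limit GSTU3, GSTU11, GSTU12, GSTU15 and GSTU21.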

Other observations

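Over the 38 tested members, the libraries of a genotype did not share the highest values evenly. In pnet2_bc, replicate 2 held the highest CPM for 26 members and replicate 1 the lowest for 20. In WT, replicate 2 held the highest for 19 and replicate 3 the lowest for 22, and in pnet2_abc replicate 3 held the highest for 19. The same count was not made over all tested genes, so whether whole libraries shifted was not tested. Among 32 members with at least 1 CPM, the mean SD of log2 CPM within genotypes was widest for GSTU4 (0.852), GSTF6 (0.796) and GSTF7 (0.685), and narrowest for GSTU5 (0.0769).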
